A study of Mus musculus with 16 samples.

Results

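The genes described here encode integrin subunits, laminin chains, the 2 nidogens and the matrix proteins Fn1, Hspg2 and Agrn. They were chosen by symbol alone, as every gene whose symbol is Itga or Itgb with 1 to 3 further characters, Lama, Lamb or Lamc with a chain number, Nid1 or Nid2, plus the 3 named matrix genes. The rule found 40 of the 13474 genes in the table: 16 integrin alpha subunits, 7 integrin beta subunits, 10 laminin chains, 2 nidogens, the 3 matrix genes and 2 genes that share only the start of the symbol. Those 2 are Itgbl1, a secreted protein with repeats like those of beta subunits, and Itgb3bp, a centromere protein, and they are kept apart from the subunits throughout.

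RNA was measured in bone marrow-derived mesenchymal stem and progenitor cells (MSPCs) of C57BL/6 mice, cultured to passage 5 to 10, that were wild type (WT) or labelled knockout (KO) for Zfp384, a zinc finger protein also called Nmp4. There were 16 libraries, 4 in each of 4 groups. The day 3 groups, WT and KO, were seeded at 10000 cells per well and kept in a non-differentiating Mesencult medium with its supplement. The day 7 groups, WT and KO, were seeded at 25000 cells per well in serum-containing α-MEM with antibiotics and glutamine, and from 48 hours also received 5 µg/mL ascorbic acid, 10 nM dexamethasone (a synthetic glucocorticoid) and 10 mM glycerol 2-phosphate, the supplements that start osteoblast differentiation. Day 7 therefore differed from day 3 in time, density, medium and supplements together. Per condition the series lists 4 technical replicates from 1 biological replicate, so every p-value below measures the spread between wells, and the genotype cannot be told apart from the culture.

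Total counts ran from 31285188 to 47635039 per library, and a level is given here as CPM, the count normalised to a library size that was scaled by the trimmed mean of M values (TMM). The RNA of Zfp384 itself was higher in KO at both days, with 81.9 ± 1.54 CPM (SD, n = 4) in WT and 91.5 ± 1.73 CPM in KO at day 3 (0.16 ± 0.04 on the log2 scale, adjusted p = 0.000139). Zfp384 averaged 88.1 ± 3.17 CPM in WT and 117 ± 5.03 in KO at day 7 (0.41 ± 0.04, adjusted p = 9.42e-12). These counts cover the whole gene, and no source used here says which exons the knockout removes, so they check nothing, and KO below means a library labelled KO. Of the stromal markers, Col1a1, Col1a2, Cxcl12, Pdgfrb, Prrx1 and Cd44 were above 100 CPM in all 4 group means. The means of Eng, Lepr, Mcam and Nt5e ran from 0.052 to 30.2 CPM, and Thy1 was at 12.7 and 14 CPM in WT and 0.0877 and 0.0608 CPM in KO. The median genotype difference of whole chromosomes was not 0. At day 3 it was 0.82 on the log2 scale for chromosome 13, 0.68 for chromosome 4, 0.68 for chromosome 18, 0.41 for chromosome 7, -0.44 for chromosome 11 and -0.46 for chromosome 12, with values between 0.70 and -0.46 for these at day 7. The scaled columns that the authors deposited imply other library sizes, which raise every KO to WT difference by about 0.50 (day 3) and 0.58 (day 7) on the log2 scale against the TMM sizes used here, while total counts lower it by 0.07 and 0.13. Where such a shift, or the median of a gene's chromosome, turns the direction of a gene, this is said beside it.

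Integrins are receptors made of an alpha and a beta subunit that tie the cytoskeleton to the matrix outside the cell, and the alpha subunit largely sets the ligand: laminins, collagens, or proteins with the short arginine-glycine-aspartate (RGD) sequence such as fibronectin. Laminins are trimers of an alpha, a beta and a gamma chain that polymerise into the sheet of a basement membrane, where nidogens and the proteoglycans perlecan (Hspg2) and agrin link them to collagen IV and to cells. In bone marrow, laminins with the alpha chains Lama4 and Lama5 are known from vessel walls and stroma, and stromal cells and osteoblasts hold on to fibronectin and collagen I through Itga5, Itgav, Itga11 and Itgb1.

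The start regions of 4 genes are shown because these genes gave some of the widest differences described below: Lama2, Itga10 and Itgbl1 were far higher in KO than in WT at day 7, and Lama5 was higher in KO at both days. They were picked after their values were seen. Each run is 300 bases, 250 before and 50 after the transcript start, from RefSeq on GRCm38.p6, read 5′ to 3′ on the gene's strand. Capitals mark the letters AAAAA and GGGCGG, the second known as a GC box, on either strand. The windows are Lama2 (chr10:27616893-27617192, minus strand), Itga10 (chr3:96645334-96645633, plus strand), Itgbl1 (chr14:123659890-123660189, plus strand) and Lama5 (chr2:180225810-180226109, minus strand).
Lama2: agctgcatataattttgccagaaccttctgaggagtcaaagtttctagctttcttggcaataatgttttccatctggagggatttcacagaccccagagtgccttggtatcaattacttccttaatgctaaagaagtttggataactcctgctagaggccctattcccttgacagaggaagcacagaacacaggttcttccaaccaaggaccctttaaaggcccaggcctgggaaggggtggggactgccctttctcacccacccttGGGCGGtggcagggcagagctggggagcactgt
Itga10: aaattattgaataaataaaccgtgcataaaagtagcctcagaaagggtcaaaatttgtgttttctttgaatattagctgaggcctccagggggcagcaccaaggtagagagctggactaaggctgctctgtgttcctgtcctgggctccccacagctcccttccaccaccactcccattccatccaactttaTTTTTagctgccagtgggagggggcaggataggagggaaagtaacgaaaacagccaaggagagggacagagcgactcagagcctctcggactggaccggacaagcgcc
Itgbl1: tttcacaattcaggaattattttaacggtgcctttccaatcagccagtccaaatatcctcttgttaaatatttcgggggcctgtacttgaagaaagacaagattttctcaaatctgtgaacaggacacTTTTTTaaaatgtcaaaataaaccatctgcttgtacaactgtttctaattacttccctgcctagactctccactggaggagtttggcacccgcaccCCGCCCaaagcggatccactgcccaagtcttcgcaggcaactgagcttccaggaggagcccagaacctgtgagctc
Lama5: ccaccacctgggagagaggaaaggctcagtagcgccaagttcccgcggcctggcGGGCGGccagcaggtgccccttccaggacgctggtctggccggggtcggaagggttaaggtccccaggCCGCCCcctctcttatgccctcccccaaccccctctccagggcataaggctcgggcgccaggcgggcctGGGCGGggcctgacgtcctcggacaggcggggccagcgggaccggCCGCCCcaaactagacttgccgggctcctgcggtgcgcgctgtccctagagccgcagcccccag

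The 4 windows differed in base composition. Lama5 was 72.7% G and C and held 4 GGGCGG, whereas Lama2, Itga10 and Itgbl1 were 50.3%, 51.0% and 45.3% G and C with 1, 0 and 1 GGGCGG. RefSeq windows were at hand for 26 of the 40 genes, 29 windows in all with a median of 59.3% G and C against 52.7% over all 32851 windows. On either strand, GGGCGG occurred in 17 of the 29 windows and in 35.7% of all windows, AAAAA in 10 of 29 and 42.7%, CCAAT in 5 of 29 and 37.4%, TGANTCA (the AP-1 motif) in 2 of 29 and 7.81%, TGTGGT (the RUNX motif) in 2 of 29 and 16.8%, and TATAAA in 0 of 29 and 13.6%. TATAAA and AAAAA can share bases. These are letter matches and not binding sites, and some genes have more than 1 window.

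A gene was called where its Benjamini-Hochberg adjusted p, over all 13474 genes in edgeR's quasi-likelihood test, was under 0.05. At day 3, 37 of the 40 genes were called, 19 higher and 18 lower in KO, where 86.4% of all genes were called (43% higher and 43.4% lower). At day 7, 39 were called, 21 higher and 18 lower, where 86% of all genes were called (41.7% higher and 44.3% lower). With the authors' library sizes the splits became 25 higher and 12 lower at day 3 and 27 higher and 9 lower at day 7. Differences of at least 2-fold were called for 19 genes at day 3 (9 higher and 10 lower, 14 and 10 with the authors' sizes) against 29% of all genes (11.7% higher and 17.2% lower). At day 7 there were 22 (13 higher and 9 lower, 18 and 5 with the authors' sizes) against 30.7% of all genes (13.7% and 16.9%). The median absolute difference was 0.92 on the log2 scale at day 3 and 1.24 at day 7 for these genes, and 0.57 and 0.59 over all genes. The 4 KO libraries and the 4 WT libraries did not overlap for 37 of the 40 genes at each day, against 82.5% of all genes at day 3 and 79.9% at day 7.

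**Figure D1:**
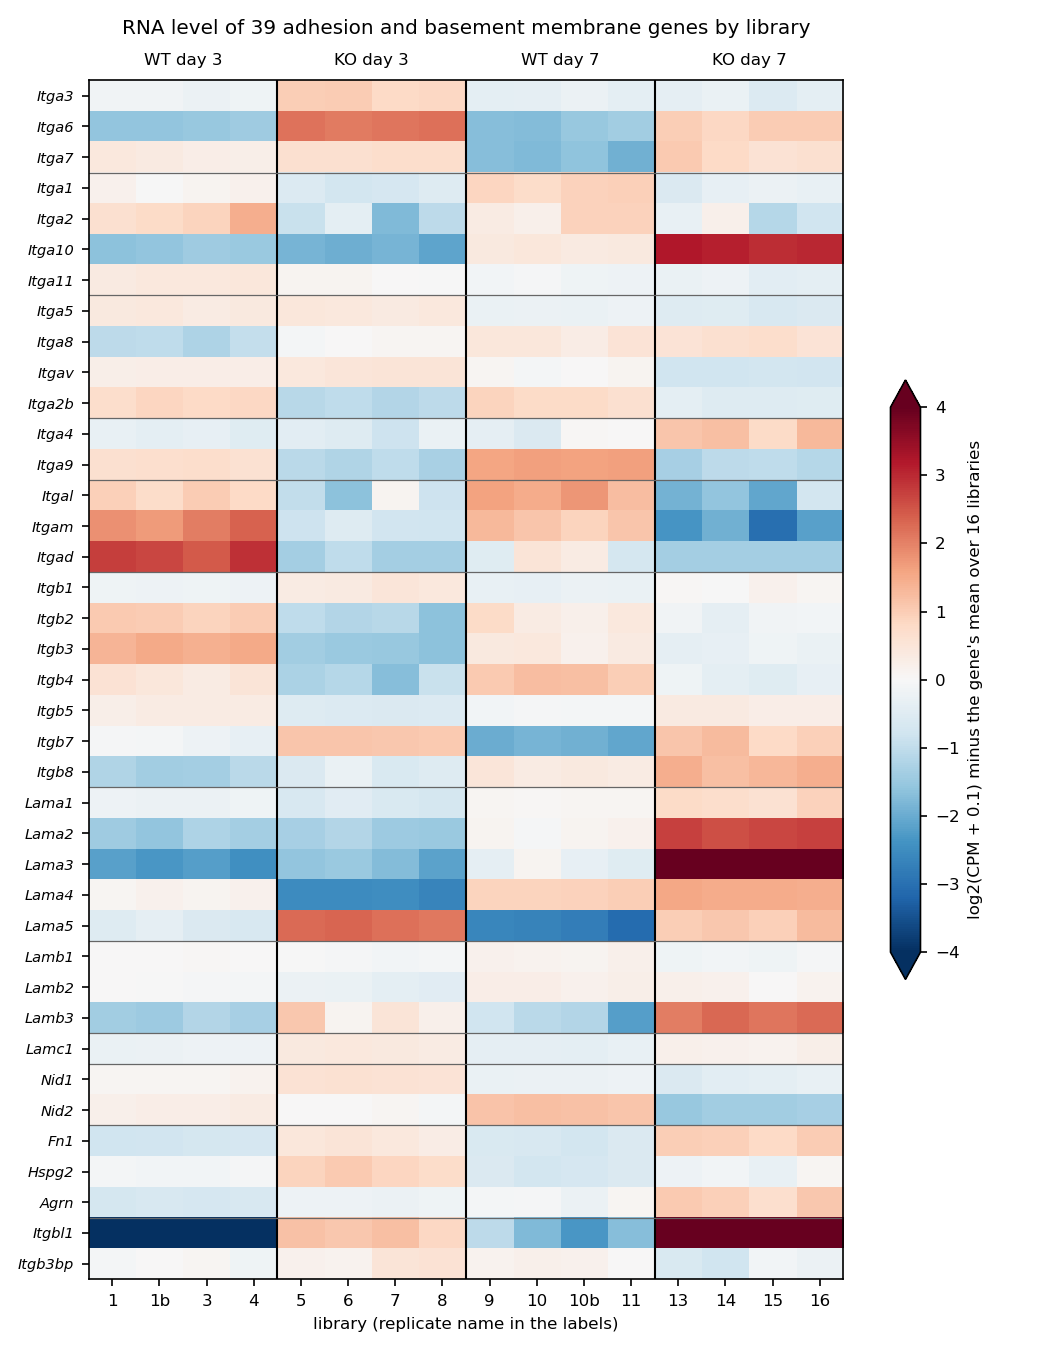
Level of 39 of the 40 genes in each of the 16 libraries, as log2(CPM + 0.1) minus the gene's mean over all libraries; rows are genes grouped by role with grey lines between roles, columns are libraries grouped by label, red is above and blue below the gene's mean, and colours stop at 4 in either direction. Libraries of a group look alike, while Lama2, Lama3 and Itga10 are red in the 4 KO libraries of day 7, Lama5 and Itga6 in both KO groups, and Itgam, Itgad and Itgb3 in WT day 3.

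The laminin alpha chains decide which laminin a cell assembles. All 5 were called between the genotypes at day 7, where 86% of all genes were called. Of the 5, 3 were higher in KO by at least 2-fold at day 7, against 13.7% of all genes. Lama4 (chr10:38965515-39110188 on mm10, the build of all gene positions given here), the alpha chain of vessel and stromal laminins, was at 106, 112, 109 and 114 CPM in the WT libraries 1, 1b, 3 and 4 of day 3 and at 17.4, 17.6, 17.8 and 16 CPM in the KO libraries 5 to 8. At day 7 it was at 185, 185, 191 and 200.3 CPM in the WT libraries 9, 10, 10b and 11 and at 293, 279.6, 279 and 276 CPM in the KO libraries 13 to 16, and this order of libraries holds for all values that follow. The KO libraries thus lay below all WT libraries at day 3 and above all of them at day 7. The log2 fold change of KO against WT was -2.68 ± 0.04 (standard error, edgeR adjusted p = 3.07e-29) at day 3 and 0.57 ± 0.03 (adjusted p = 2.61e-15) at day 7, and the difference between the days was called (3.24 ± 0.05, adjusted p = 1.43e-26).

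Lama5 (chr2:180176373-180225859), whose laminins line mature vessels and epithelia, ran the other way at day 3, at 12, 13.2, 11.4 and 10.9 CPM in WT and 83, 85.8, 79.2 and 74.1 CPM in KO. At day 7 it was at 2.71, 2.62, 2.41 and 1.95 CPM in WT and 33.6, 36.2, 32.9 and 41.3 CPM in KO. It fell from day 3 to day 7 in both genotypes and was higher in every KO library than in any WT library of the same day, by 2.76 ± 0.07 (adjusted p = 1.08e-22) and 3.88 ± 0.09 (adjusted p = 4.14e-23) on the log2 scale. Lama2 (chr10:26981285-27616942), the alpha chain of the laminin around muscle fibres and nerves, was at 8.46, 7.55, 9.58 and 8.72 CPM in WT and 8.97, 10.02, 8.33 and 8.06 CPM in KO at day 3, where the groups overlapped and no difference was called (adjusted p = 0.584). At day 7 it reached 24.7, 21.8, 24.4 and 25.7 CPM in WT and 151, 137, 144 and 153 CPM in KO, a log2 fold change of 2.60 ± 0.06 (adjusted p = 1.58e-25). Lama2 and Lama4 both lie on chromosome 10, whose median difference was -0.22 at day 3 and -0.20 at day 7. The day 3 value of Lama2 was called as higher with the authors' sizes (0.54) and against the chromosome median (0.27).

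Lama3 (chr18:12334024-12583012), the alpha chain of the laminin that anchors epithelia, was below 0.5 CPM in all 8 libraries of day 3, at 0.253, 0.213, 0.244 and 0.19 CPM in WT and 0.426, 0.458, 0.377 and 0.261 CPM in KO. At day 7 it was at 1.14, 1.59, 1.15 and 1.02 CPM in WT and 29.5, 28.9, 28.9 and 35.5 CPM in KO. The lowest KO library exceeded the highest WT library many times over, and the log2 fold change was 4.64 ± 0.11 (adjusted p = 1.42e-25). Its chromosome 18 had medians of 0.68 and 0.61. The day 3 difference of 0.76 ± 0.32 (adjusted p = 0.0274) rested on few counts: it was no longer called when WT library 1b or 4 or KO library 5 or 6 was left out (adjusted p 0.0508 to 0.0865), nor with limma voom, nor against the chromosome median (0.087). Lama1 (chr17:67697265-67822645), the alpha chain of the first embryonic laminin, was at 47.9, 46.7, 46.5 and 48.5 CPM in WT and 35.2, 40.1, 35.9 and 33.3 CPM in KO at day 3. Lama1 at day 7 stood at 57.7, 56.4, 57.2 and 57.9 CPM in WT and 93.2, 88.9, 83.3 and 103 CPM in KO. The KO libraries lay below WT at day 3 (-0.39 ± 0.05, adjusted p = 1.44e-07) and above WT at day 7 (0.68 ± 0.05, adjusted p = 4.67e-13). The day 3 direction was lost with the authors' sizes (0.11, adjusted p = 0.115).

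For all 5 alpha chains the KO to WT difference moved upward from day 3 to day 7 by at least 2-fold, with interactions from 1.07 (Lama1) to 3.88 (Lama3) on the log2 scale. Called interactions of that size and sign were found for 13 of the 40 genes and for 9.21% of all genes, and relative to chromosome medians 4 of the 5 chains kept the 2-fold size. Levels of different chains were compared per length, as RPKM, the CPM per kilobase of the deposited exon length. Lama4 made up 72.4% ± 0.723 (SD, n = 4) of the summed RPKM of the alpha chains in WT day 3, 19.4% ± 0.721 in KO day 3, 78.1% ± 0.521 in WT day 7 and 60.2% ± 1.75 in KO day 7. Lama5 made up 4.15% ± 0.361, 48.3% ± 0.618, 0.53% ± 0.0886 and 4.08% ± 0.394 in the same order, and Lama2 3.52% ± 0.371, 6.21% ± 0.279, 6.17% ± 0.292 and 19.4% ± 0.559. The sum itself was 25.1 ± 0.586 RPKM in WT and 14.7 ± 0.918 in KO at day 3, and 40.3 ± 1.32 and 77.5 ± 2.26 RPKM at day 7. Lama4 was the most abundant alpha chain per length in 3 groups and Lama5 in KO day 3. The same chains led with the gene lengths of GENCODE M21, where Lama4 held 58.4%, 11.1%, 67.1% and 48.9%. In KO day 3, Lama1 stood above Lama4 with the deposited lengths (25.9%) and with those of GENCODE (29.1%).

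**Figure D2:**
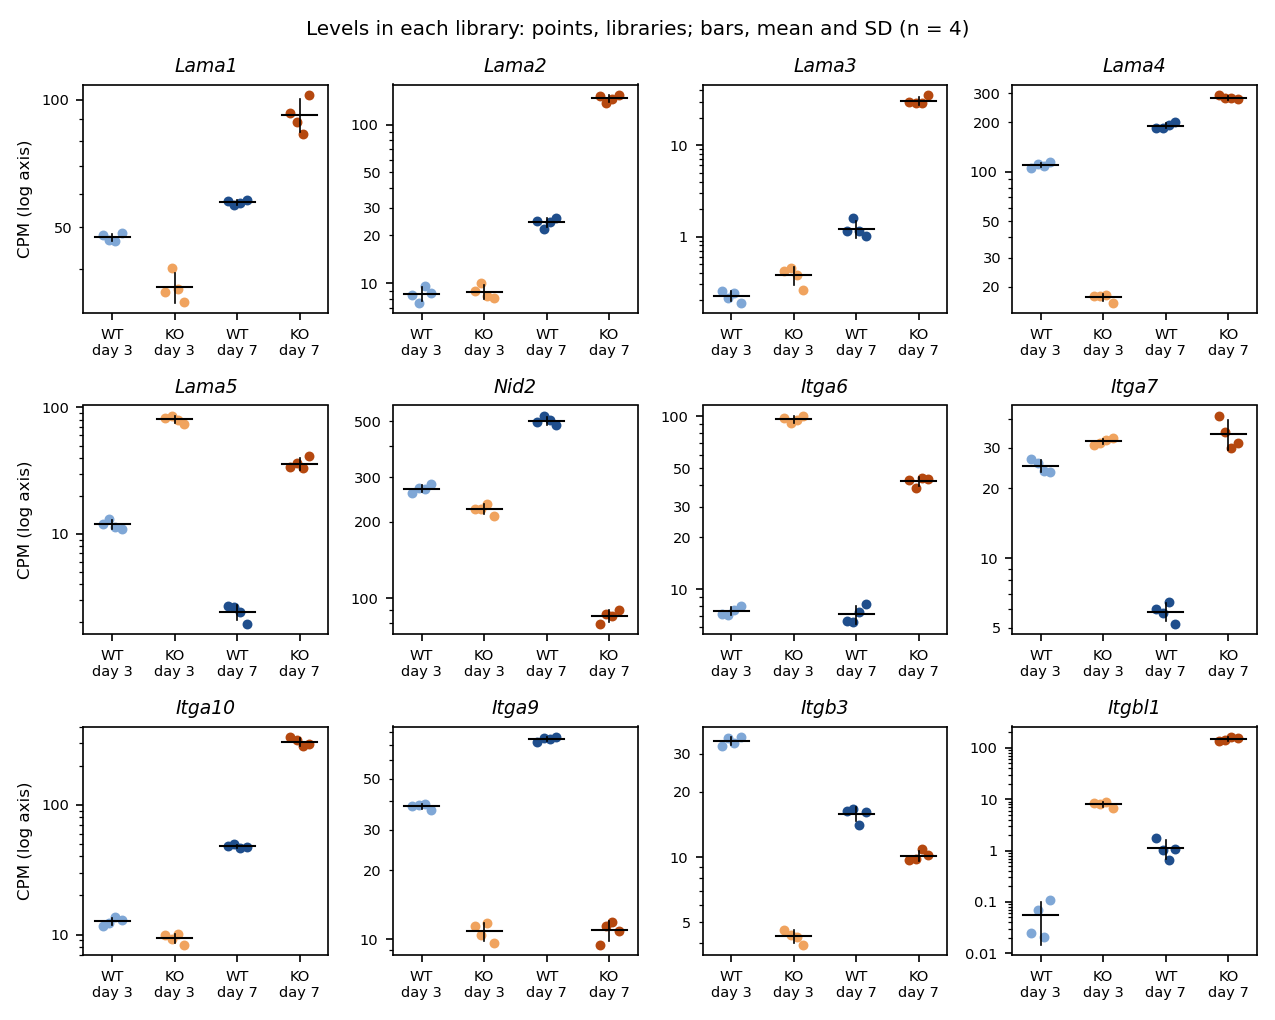
CPM on a log axis, scaled separately for each gene, for 12 of the genes with wide differences; points are libraries, horizontal bars the mean and vertical bars the SD of 4 libraries. The KO points of Lama4 lie below the WT points at day 3 and above them at day 7, those of Nid2 fall from near the WT points at day 3 to far below them at day 7, and those of Itgbl1 lie far above WT at both days.

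The beta and gamma chains complete the trimers. Lamb1 was at 519.7 ± 6.76 CPM in WT and 490.0 ± 9.53 in KO at day 3. The day 7 means of Lamb1 were 574 ± 15.6 CPM (WT) and 469.7 ± 18.6 CPM (KO). Its log2 fold changes of -0.08 ± 0.03 and -0.29 ± 0.03 (adjusted p = 0.0154 and 1.85e-09) turned to 0.37 and 0.16 relative to chromosome 12 and to 0.41 and 0.29 with the authors' sizes, and the day 3 call was lost without WT library 3 or KO library 7 (adjusted p 0.0589 to 0.0607). Lamb2, the second common beta chain, was at 272 ± 7.56 and 222 ± 15.2 CPM at day 3. Lamb2 averaged 327 ± 11.2 CPM in WT and 306 ± 17.4 in KO at day 7. Its differences of -0.29 ± 0.04 and -0.10 ± 0.04 (adjusted p = 4.22e-07 and 0.0387) became 0.20 and 0.48 with the authors' sizes. Relative to chromosome 9 the day 3 call was lost (-0.049, edgeR adjusted p = 0.293). In the edgeR fit of the 2 groups alone the day 7 call was lost (-0.069, adjusted p = 0.143). The day 7 groups overlapped, the sign was 0.14 relative to chromosome 9, and the call was lost without WT library 9, 10 or 11 or KO library 15 or 16 (adjusted p 0.0548 to 0.179).

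Lamc1, the gamma chain of most laminins, rose in KO from 285 ± 5.0 to 435 ± 11.5 CPM at day 3 and from 262 ± 6.37 to 378 ± 12.9 CPM at day 7, with log2 fold changes of 0.61 ± 0.03 (adjusted p = 7.02e-17) and 0.53 ± 0.03 (adjusted p = 2.08e-15). Lamb3, a partner of Lama3 in the epithelial laminin, was rare and higher in KO. Lamb3 was at 0.126, 0.118, 0.163 and 0.135 CPM in WT and 1.16, 0.539, 0.754 and 0.587 CPM in KO at day 3. The day 7 values of Lamb3 were 0.244, 0.185, 0.164 and 0.0283 CPM in WT and 2.35, 2.84, 2.54 and 2.75 CPM in KO. The KO libraries lay above the WT libraries without overlap at both days. The log2 fold changes were 2.45 ± 0.35 and 4.03 ± 0.28 (adjusted p = 2.12e-07 and 6.26e-14).

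Beside Lama3 and Lamb3, 3 of 8 listed epithelial markers were measured, with summed levels of 12.2 to 14.6 CPM in WT day 3, 8.98 to 11 in KO day 3, 4.67 to 6.23 in WT day 7 and 4.52 to 5.54 in KO day 7. Cdh1 (E-cadherin) rose in KO against WT from 0.274 to 0.469 CPM at day 3 and from 0.109 to 2.77 CPM at day 7. Krt18 fell in KO from 2.77 to 0.689 CPM at day 3 and rose from 0.945 to 1.65 CPM at day 7. Krt19 fell in KO from 9.93 to 8.39 CPM at day 3 and from 4.76 to 0.593 CPM at day 7. Epcam, Krt5, Krt8, Krt14 and Cldn4 were not among the genes measured. In bulk RNA a change in the number of cells of a type and a change in RNA per cell cannot be told apart, here and for all later results. Of 12 endothelial markers 4 were measured, with summed levels of 8.85 to 10.4 CPM in WT and 9.74 to 11.3 CPM in KO at day 3, and 4.52 to 5.29 and 21.6 to 23.7 CPM at day 7. Kdr, the main VEGF receptor, rose in KO from 0.285 to 2.08 CPM at day 3 and from 0.632 to 13.2 CPM at day 7. Flt1 rose from 0.222 to 3.61 and from 0.245 to 4.25 CPM. Plvap rose from 0.101 to 0.305 and from 0.082 to 1.49 CPM, and Egfl7 fell from 8.95 to 4.7 CPM at day 3. Pecam1 and Cdh5 were not among the genes measured. The part of such cells in the laminin differences was not tested.

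The nidogens, which bridge laminin and collagen IV, were called in opposite directions at day 3. At day 7 both were called lower in KO, Nid2 by far more than Nid1. Nid2 (chr14:19751257-19811787) was at 259.8, 272, 269 and 282 CPM in WT and 226, 226, 236 and 212 CPM in KO at day 3. In the WT libraries of day 7, Nid2 was at 495, 525, 506 and 483 CPM, and in the KO libraries at 79.2, 86.2, 85.2 and 89.9 CPM. It rose in WT and fell in KO between the days, so that the 4 KO libraries of day 7 were the lowest of all 16 (-2.56 ± 0.04 against WT, adjusted p = 3.03e-29, interaction -2.29 ± 0.06, adjusted p = 1.41e-23). At day 3 the difference was -0.27 ± 0.04 (adjusted p = 2.35e-07) and turned to 0.23 with the authors' sizes. A gene on the other strand, 2700060E02Rik, overlaps 386 bases of the exons of Nid2, Cerkl overlaps 166 of Itga4, Cox6a2 overlaps 69 of Itgad and Galk1 overlaps 55 of Itgb4, and no source used here says whether counting used the strand. Nid1 was at 501 ± 11.5 CPM in WT and 701 ± 12.7 in KO at day 3 (0.49 ± 0.04, adjusted p = 2.02e-12). The day 7 means of Nid1 were 400.4 ± 9.89 CPM (WT) and 353 ± 26.7 CPM (KO) (-0.18 ± 0.04, adjusted p = 9.98e-05). The day 3 value was -0.34 relative to chromosome 13 and the day 7 value 0.40 with the authors' sizes. Nid2 held 40.1% ± 0.445 of the summed nidogen RPKM in WT and 28.4% ± 0.762 in KO at day 3, and 60.8% ± 1.23 and 23% ± 0.514 at day 7.

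Fn1 (chr1:71585473-71653234), fibronectin, an RGD ligand, was the most abundant of the 40 genes by CPM in all 4 groups. It was at 6154, 6237, 6556 and 6633 CPM in WT and 14720.2, 15257, 14412 and 13157 CPM in KO at day 3. By day 7 Fn1 stood at 7059, 6813, 6433 and 7182 CPM in WT and at 21209.6, 20875, 18583 and 21608 CPM in KO. Every KO library held more than any WT library of its day, with log2 fold changes of 1.17 ± 0.05 (adjusted p = 6.7e-19) and 1.58 ± 0.05 (adjusted p = 5.65e-22). Agrn, the heparan sulfate proteoglycan that clusters acetylcholine receptors in muscle, was at 52, 54.8, 54 and 55 CPM in WT and 74.3, 74.1, 72.4 and 75 CPM in KO at day 3. Agrn at day 7 stood at 80.6, 82.3, 71.8 and 90.9 CPM in WT and 176, 165, 137 and 182 CPM in KO. The KO libraries were higher without overlap at both days, by 0.45 ± 0.08 (adjusted p = 1.92e-05) and 1.02 ± 0.07 (adjusted p = 1.79e-10). Hspg2, perlecan, was at 889 ± 19.4 CPM in WT and 1754 ± 152 in KO at day 3 (0.98 ± 0.07, adjusted p = 1.57e-10). Hspg2 averaged 605 ± 34.9 CPM in WT and 861 ± 95.3 in KO at day 7 (0.51 ± 0.07, adjusted p = 1.55e-06). Both proteoglycans lie on chromosome 4, with medians of 0.68 and 0.61, and relative to these Agrn was at -0.22 at day 3 and Hspg2 at -0.10 at day 7.

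Among the integrin alpha subunits that bind laminins, Itga6 (chr2:71786939-71858427) gave the widest difference. It was at 7.23, 7.12, 7.55 and 8.01 CPM in WT and 97.5, 91, 95 and 101 CPM in KO at day 3. On day 7, Itga6 measured 6.5, 6.48, 7.4 and 8.23 CPM in WT and 42.7, 38.3, 43.8 and 43.6 CPM in KO. The 8 KO libraries lay above the 8 WT libraries, with the higher KO level at day 3 (3.68 ± 0.06, adjusted p = 9.8e-29, against 2.56 ± 0.06, adjusted p = 1.55e-24, at day 7). Itga7 (chr10:128933813-128958284), known from muscle, was at 26.9, 25.9, 23.9 and 23.6 CPM in WT and 30.9, 31.5, 32.3 and 32.9 CPM in KO at day 3. The day 7 values of Itga7 were 6.04, 5.77, 6.44 and 5.2 CPM in WT and 41.2, 34.9, 29.8 and 31.5 CPM in KO. WT fell between the days (-2.09 ± 0.09, adjusted p = 1.71e-16) and KO had 0.11 ± 0.07 (adjusted p = 0.169, 0.0191 without KO library 15). The genotype difference was 0.35 ± 0.07 (adjusted p = 0.000107) at day 3 and 2.55 ± 0.09 (adjusted p = 3.25e-19) at day 7. 

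Itga3, the third laminin-binding subunit, was at 72.8, 73.2, 68.9 and 71.3 CPM in WT and 159, 162, 141 and 143 CPM in KO at day 3. In the WT libraries of day 7, Itga3 was at 61.7, 63.2, 68.2 and 61.8 CPM, and in the KO libraries at 62.4, 66.8, 55.5 and 62.1 CPM. KO was higher at day 3 (1.08 ± 0.05, adjusted p = 1.78e-17), and at day 7 the groups overlapped and no difference was called (-0.05 ± 0.05, adjusted p = 0.389). Relative to chromosome 11, whose median was -0.46, the day 7 value was 0.41 and called as higher, as it was with the authors' sizes (0.53), and with total counts alone it was called as lower (-0.17). Together these 3 subunits held 6.69% ± 0.227 of the alpha subunit RPKM in WT and 16.1% ± 0.267 in KO at day 3, and 6.08% ± 0.356 and 11% ± 0.31 at day 7. Beside Itga7 and Lama2, 6 of 10 listed muscle markers were measured, Des, Myocd, Myh11, Cnn1, Acta2 and Tagln, but not Myod1, Myog, Pax7 and Ckm. Their summed level was 4691 to 4985 CPM in WT and 4949 to 5134 CPM in KO at day 3. Most of it was Acta2, with a mean of 4327 CPM in WT and 4187 CPM in KO. At day 3, 2 of the 6 were called higher and 3 lower in KO, against 43% and 43.4% of all genes. At day 7 all 6 were called lower in KO, against 44.3% of all genes. The sums at day 7 were 3166 to 3443 CPM in WT and 972 to 1091 CPM in KO.

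Of the 4 collagen-binding alpha subunits, Itga10 (chr3:96645584-96664519), known from cartilage, stood out at day 7. It was at 11.7, 12.2, 13.6 and 13.1 CPM in WT and 9.93, 9.29, 10.02 and 8.36 CPM in KO at day 3. By day 7 Itga10 stood at 47.9, 49.6, 46.8 and 47.7 CPM in WT and at 335, 317, 283 and 295 CPM in KO. KO lay below WT at day 3 (-0.43 ± 0.07, adjusted p = 2.58e-06), a direction lost with the authors' sizes (0.069), and far above it at day 7 (2.68 ± 0.05, adjusted p = 2.75e-27), with an interaction of 3.11 ± 0.08 (adjusted p = 5.32e-22). Its share of the alpha subunit RPKM was 0.796% ± 0.0553 in WT and 0.572% ± 0.0461 in KO at day 3, and 3.92% ± 0.0722 and 24.7% ± 0.868 at day 7.

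Itga1 was at 27.2, 23.9, 26.1 and 27 CPM in WT and 16.5, 14.5, 15 and 16.7 CPM in KO at day 3. Itga1 at day 7 stood at 43.6, 40.3, 45.9 and 47.1 CPM in WT and 16.2, 19, 20.6 and 19.6 CPM in KO. KO was lower without overlap at both days (-0.73 ± 0.07, adjusted p = 5.43e-11, and -1.23 ± 0.06, adjusted p = 1.16e-16), on chromosome 13 whose medians were 0.82 and 0.70. Itga11, the receptor of fibroblasts and osteoblasts for collagen I and the most abundant of the 4 per length in WT and in KO day 3, was at 482 ± 11.3 and 375 ± 15.1 CPM at day 3. The day 7 means of Itga11 were 331 ± 16.7 CPM (WT) and 289 ± 20.4 CPM (KO). Its differences of -0.36 ± 0.04 (adjusted p = 5.82e-09) and -0.20 ± 0.04 (adjusted p = 0.000117) became 0.14 and 0.38 with the authors' sizes, and the second became 0.040 relative to chromosome 9. Itga2, the collagen receptor of platelets and epithelia, was below 1 CPM in every library and lower in KO. Its means were 0.568 ± 0.186 and 0.078 ± 0.0666 CPM at day 3 and 0.425 ± 0.136 and 0.153 ± 0.103 CPM at day 7 (-2.73 ± 0.48, adjusted p = 7.04e-06, and -1.44 ± 0.44, adjusted p = 0.00384). The day 7 call of Itga2 was lost with the authors' sizes (-0.88, adjusted p = 0.0597). The collagen-binding class held 33.2% ± 0.637, 24.6% ± 0.63, 34.7% ± 1.14 and 49.7% ± 1.0 of the alpha subunit RPKM in WT day 3, KO day 3, WT day 7 and KO day 7.

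The RGD-binding class held the largest share of the alpha subunits in 3 groups (57.9% ± 0.494 in WT day 3, 58.7% ± 0.774 in KO day 3 and 54.6% ± 1.16 in WT day 7) and 38.5% ± 1.05 in KO day 7, where the collagen-binding class was larger. Itga5, the fibronectin receptor subunit, was at 534 ± 14.2 CPM in WT and 543 ± 12.5 in KO at day 3, with overlapping groups (0.02 ± 0.03, adjusted p = 0.502, called as higher with the authors' sizes at 0.52 and against its chromosome at 0.080). At day 7 it was at 345 ± 8.73 and 278 ± 12.1 CPM (-0.31 ± 0.03, adjusted p = 1.13e-09), which became 0.27 with the authors' sizes. Itgav, the vitronectin receptor subunit that also frees TGF-beta from its latent form, was at 377, 385, 387 and 389.6 CPM in WT and 432, 447, 462 and 457 CPM in KO at day 3. On day 7, Itgav measured 338, 306, 321 and 343 CPM in WT and 185, 183, 194 and 189.6 CPM in KO. KO lay above WT at day 3 (0.23 ± 0.03, adjusted p = 6.76e-07) and below it at day 7 (-0.80 ± 0.03, adjusted p = 1.23e-18), in both cases without overlap.

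Itga8, the nephronectin receptor subunit, was at 5.46, 5.63, 4.82 and 5.9 CPM in WT and 10.9, 11.6, 12.1 and 12 CPM in KO at day 3. The day 7 values of Itga8 were 15.9, 15.7, 14 and 17 CPM in WT and 16.7, 17.8, 18.9 and 17 CPM in KO. It was higher in KO at day 3 (1.10 ± 0.08, adjusted p = 1.01e-13). The day 7 groups overlapped, and the call there (0.17 ± 0.07, adjusted p = 0.0184) was lost without WT library 10b or KO library 15 (adjusted p 0.0728 to 0.0964) and with total counts as library sizes (0.042, adjusted p = 0.552). Itga2b, best known as the platelet fibrinogen receptor subunit, was at 14.8, 16.5, 15.6 and 16.1 CPM in WT and 4.12, 4.36, 3.96 and 4.34 CPM in KO at day 3. In the WT libraries of day 7, Itga2b was at 16.7, 15.4, 15.4 and 14.2 CPM, and in the KO libraries at 6.92, 6.26, 6.25 and 6.39 CPM. KO libraries lay below WT libraries at both days (-1.91 ± 0.07, adjusted p = 4.95e-20, and -1.25 ± 0.07, adjusted p = 2.11e-16). Of 10 listed platelet and megakaryocyte markers, 2 were measured, and Pf4, Ppbp and Gp9 were not among them. Gp1bb was at 3.49 and 6.85 CPM at day 3 and 3.35 and 8.33 CPM at day 7 (WT and KO), and Vwf at 2.42 and 0.899 CPM and 6.22 and 7.99 CPM.

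Itga9, which binds tenascin C, osteopontin and VCAM1, and Itga4, which binds VCAM1 and fibronectin, went opposite ways at day 7. Itga9 (chr9:118606709-118901003) was at 37.8, 38.3, 38.9 and 36.4 CPM in WT and 11.4, 10.4, 11.8 and 9.66 CPM in KO at day 3. By day 7 Itga9 stood at 72, 75.2, 74 and 75.5 CPM in WT and at 9.5, 11.5, 11.9 and 10.9 CPM in KO. It rose between the days in WT (0.97 ± 0.05, adjusted p = 2.31e-16) and had no called change in KO (0.01 ± 0.07, adjusted p = 0.881). KO minus WT was -1.80 ± 0.06 (adjusted p = 1.18e-21) at day 3 and -2.76 ± 0.06 (adjusted p = 1.35e-26) at day 7, with an interaction of -0.96 ± 0.08 (adjusted p = 4.48e-11). Itga4 was at 0.985, 0.923, 0.977 and 0.866 CPM in WT and 0.908, 0.835, 0.66 and 1.01 CPM in KO at day 3. Itga4 at day 7 stood at 0.948, 0.794, 1.29 and 1.24 CPM in WT and 2.78, 3.02, 2.16 and 3.16 CPM in KO. The groups overlapped at day 3 (-0.14 ± 0.21, adjusted p = 0.527) and KO was higher at day 7 (1.37 ± 0.17, adjusted p = 1.35e-08). 

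The leukocyte integrin subunits that pair with Itgb2 were rare and lower in KO. Itgam, the CD11b subunit of myeloid cells, was at 3.59, 3.27, 4.19 and 5.17 CPM in WT and 0.482, 0.62, 0.503 and 0.49 CPM in KO at day 3. On day 7, Itgam measured 2.44, 2.12, 1.81 and 2.12 CPM in WT and 0.101, 0.172, 0.0267 and 0.128 CPM in KO (-2.93 ± 0.19, adjusted p = 2.64e-14, and -4.30 ± 0.29, adjusted p = 6.05e-14). Itgal, the LFA-1 subunit, was at 1.16, 0.97, 1.22 and 1.03 CPM in WT and 0.227, 0.108, 0.597 and 0.261 CPM in KO at day 3. The day 7 values of Itgal were 1.87, 1.72, 2.11 and 1.41 CPM in WT and 0.0758, 0.115, 0.0534 and 0.288 CPM in KO (-1.91 ± 0.31, adjusted p = 2.42e-06, and -3.78 ± 0.34, adjusted p = 3.14e-11). For both genes no KO library reached the lowest WT library of its day. Itgad, a macrophage subunit near Itgam on chromosome 7, was at 1.62, 1.54, 1.3 and 1.84 CPM in WT day 3 (261 counts in all) against 1 count in the 4 KO libraries, a ratio of 209.6 with a 95% exact counting interval of 37.3 to 8308. At day 7 it had 23 counts in WT and 0 in KO, at least 7.49-fold lower in KO with the floor set at 3 counts for the 4 libraries together. Such intervals and floors cover counting error only.

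Their common partner Itgb2 was at 7.86, 7.62, 7.0 and 7.74 CPM in WT and 1.82, 1.62, 1.67 and 1.14 CPM in KO at day 3. In the WT libraries of day 7, Itgb2 was at 6.42, 4.71, 4.33 and 5.01 CPM, and in the KO libraries at 3.36, 2.87, 3.42 and 3.45 CPM. KO was lower without overlap at both days (-2.26 ± 0.13, adjusted p = 8.15e-16, and -0.64 ± 0.12, adjusted p = 1.42e-05), yet Itgb2 rose from day 3 to day 7 in KO (1.06 ± 0.15, adjusted p = 1.75e-07) while Itgam fell there (-2.29 ± 0.40, adjusted p = 7.16e-06). With the authors' sizes the day 7 difference of Itgb2 was not called (-0.068). Macrophage and myeloid markers were lower in KO as well. Of 17 measured of 22 listed, 17 were called lower at day 3 and 16 at day 7, against 43.4% and 44.3% of all genes. At both days 0 were higher (1 at each day with the authors' sizes). Between the days in KO, 14 of these markers were called lower at day 7 and 1 higher, against 39.3% and 40.6% of all genes. Their summed level was 169 to 188 CPM in WT and 39.95 to 49 CPM in KO at day 3, and 196 to 222 and 22.6 to 28 CPM at day 7. Adgre1 (F4/80) fell from 8.21 ± 0.84 to 0.591 ± 0.195 CPM at day 3 and from 5.88 ± 0.353 to 0.311 ± 0.0465 CPM at day 7, and Mrc1, C1qb and C1qc fell as well. The part of myeloid cells in the integrin differences was not tested. Of 12 lymphocyte markers 1 was measured, Lck, at 2.64 and 0.449 CPM at day 3 and 1.97 and 3.91 CPM at day 7.

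Among the other beta subunits, Itgb1, the partner of most alpha subunits described here, rose in KO from 869.9 ± 6.67 to 1300.4 ± 66.6 CPM at day 3 (0.58 ± 0.04, adjusted p = 1.85e-14) and from 818 ± 19.7 to 1041 ± 56.4 CPM at day 7 (0.35 ± 0.04, adjusted p = 1.3e-09). Itgb3 (chr11:104608000-104670471), the partner of Itgav and Itga2b, was at 32.3, 35.4, 33.6 and 35.7 CPM in WT and 4.63, 4.39, 4.27 and 3.95 CPM in KO at day 3. By day 7 Itgb3 stood at 16.3, 16.6, 14 and 16.1 CPM in WT and at 9.67, 9.76, 10.9 and 10.3 CPM in KO. It fell between the days in WT (-1.12 ± 0.06, adjusted p = 2.95e-16) and rose in KO (1.23 ± 0.08, adjusted p = 1.67e-14). KO lay below WT without overlap at both days, with log2 fold changes of -2.99 ± 0.07 (adjusted p = 3.3e-25) and -0.64 ± 0.06 (adjusted p = 3.32e-10). With the authors' sizes the day 7 difference was not called (-0.059). Itgb5, the other main partner of Itgav, was at 558, 593, 588 and 593 CPM in WT and 329, 325, 313 and 321 CPM in KO at day 3. Itgb5 at day 7 stood at 439, 457, 450.4 and 445 CPM in WT and 598, 600.3, 568 and 570.1 CPM in KO. KO lay below WT at day 3 (-0.86 ± 0.03, adjusted p = 2.36e-20) and above it at day 7 (0.38 ± 0.03, adjusted p = 3.07e-12).

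Per length, Itgb1 held 52.4% ± 0.813 of the beta subunit RPKM in WT day 3, 75% ± 1.36 in KO day 3, 57.4% ± 0.794 in WT day 7 and 56.9% ± 1.97 in KO day 7, and Itgb5 held 44.8% ± 0.81, 23.8% ± 1.28, 40.2% ± 0.739 and 40.9% ± 1.92. The other 5 beta subunits made up the small remainder. Itgb7, a leukocyte subunit that pairs with Itga4, was at 2.96, 2.89, 2.67 and 2.41 CPM in WT and 6.75, 6.65, 6.54 and 6.49 CPM in KO at day 3. On day 7, Itgb7 measured 0.704, 0.767, 0.74 and 0.651 CPM in WT and 6.72, 7.49, 5.44 and 6.04 CPM in KO. Unlike Itgb2 and its alpha partners, Itgb7 was higher in KO without overlap at both days (1.27 ± 0.10, adjusted p = 2.92e-12, and 3.16 ± 0.13, adjusted p = 6.4e-19). Itgb4, the hemidesmosome partner of Itga6, was at 5.76, 5.28, 4.84 and 5.5 CPM in WT and 1.5, 1.67, 1.1 and 2.02 CPM in KO at day 3. The day 7 values of Itgb4 were 7.91, 9.05, 8.97 and 7.55 CPM in WT and 3.36, 2.84, 2.7 and 3.0 CPM in KO. KO was lower without overlap at both days (-1.76 ± 0.13, adjusted p = 3.47e-13, and -1.49 ± 0.11, adjusted p = 3.34e-13), opposite in direction to Itga6. Itgb8, a further partner of Itgav, was higher in KO, at 1.82 ± 0.185 CPM in WT against 3.16 ± 0.366 CPM at day 3 (0.81 ± 0.12, adjusted p = 4.08e-07) and 5.87 ± 0.291 against 11.6 ± 0.972 CPM at day 7 (0.99 ± 0.08, adjusted p = 8.22e-12).

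**Figure D3:**
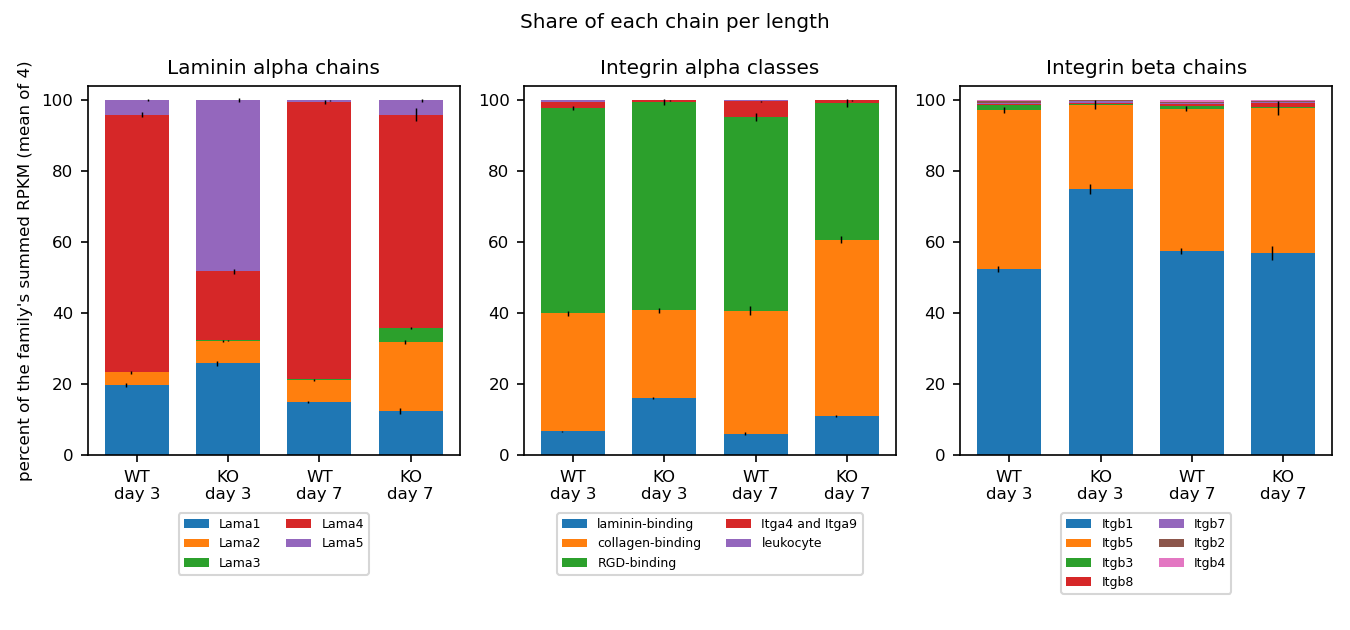
Mean share of each chain or class in the summed RPKM of its family, in percent, for the 4 groups of 4 libraries; black bars are the SD of each share. Lama4 (red, left) is the largest laminin alpha share in 3 groups and Lama5 (purple) in KO day 3, and the collagen-binding class (orange, middle) is the largest integrin alpha share in KO day 7.

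**Figure D4:**
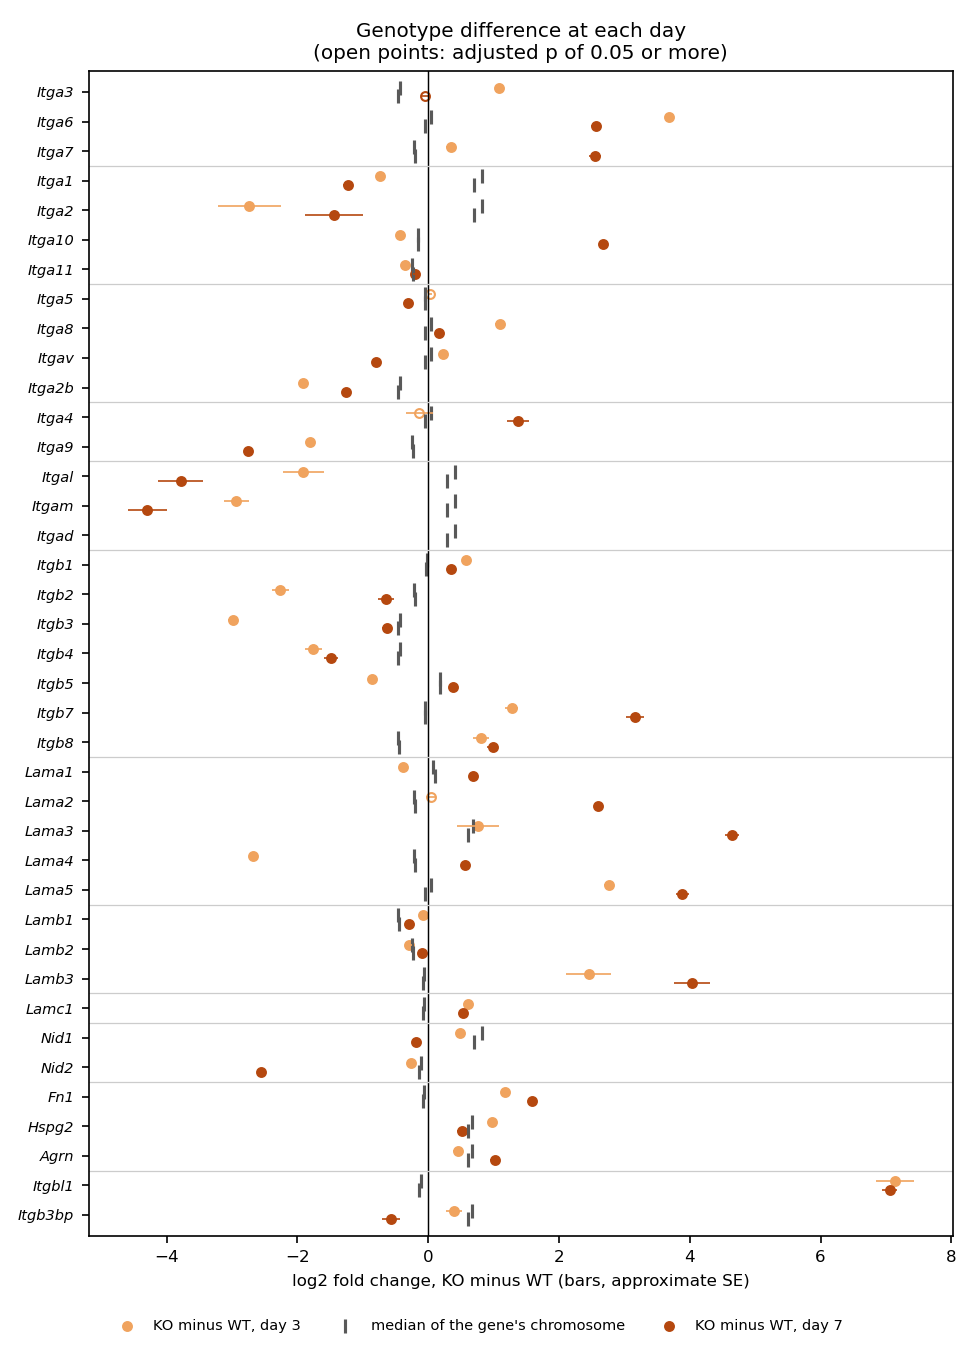
Log2 fold change of KO against WT at day 3 (light) and day 7 (dark) for 38 of the 40 genes, with approximate standard errors, open points where the adjusted p was 0.05 or more, and grey ticks at the median difference of the gene's chromosome. Itgad, with 1 or 0 counts in KO, is listed without points. Itgbl1 lies farthest to the right at both days, and Lama4, Lama1, Itga10, Itgav, Itgb5, Nid1 and Itgb3bp have filled points on opposite sides of 0 at the 2 days, of which the points of Itga10 and Lama1 at day 3, and of Nid1 and Itgb3bp at each day, change side under another scaling.

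The 2 genes named after integrins without being subunits behaved differently. Itgbl1 (chr14:123660140-123974079) was at 0.0253, 0.071, 0.0203 and 0.108 CPM in WT and 8.57, 8.06, 8.7 and 6.66 CPM in KO at day 3. In the WT libraries of day 7, Itgbl1 was at 1.73, 1.03, 0.658 and 1.07 CPM, and in the KO libraries at 139, 144, 164 and 153 CPM. It was near 0 in WT day 3, rose with day in both genotypes (4.31 ± 0.47 in WT and 4.22 ± 0.09 in KO, adjusted p = 5.97e-08 and 8.95e-21), and was higher in KO by 7.14 ± 0.28 (adjusted p = 6.6e-16) at day 3 and 7.05 ± 0.12 (adjusted p = 8.07e-23) at day 7. No change of this difference between the days was called (interaction -0.08 ± 0.37, adjusted p = 0.855). Itgbl1 had 9 counts in the 4 libraries of WT day 3 together. The day 3 difference, the rise in WT and the interaction all rest on these few counts. The approximate errors of 0.28 and 0.37 are below the 0.47 of the rise in WT and may be too small. Itgb3bp was at 3.31 ± 0.256 and 4.39 ± 0.706 CPM at day 3 (0.40 ± 0.13, adjusted p = 0.00574, -0.28 relative to chromosome 4). The day 7 means of Itgb3bp were 3.74 ± 0.208 CPM (WT) and 2.52 ± 0.576 CPM (KO) (-0.57 ± 0.14, adjusted p = 0.000401, 0.00815 with the authors' sizes).

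Between day 3 and day 7, 33 of the 40 genes were called in WT (16 higher and 17 lower at day 7), where 67.3% of all genes were called (32.3% higher and 34.9% lower). In KO 34 were called (19 higher and 15 lower), where 79.9% of all genes were called (40.6% higher and 39.3% lower). Changes of at least 2-fold were called for 11 genes in WT (6 higher and 5 lower) against 9.67% of all genes (5.89% and 3.79%). For KO the number was 20 (12 higher and 8 lower) against 21.3% of all genes (12.5% and 8.79%). The libraries of the 2 days did not overlap for 32 genes in each genotype, against 63.1% of all genes in WT and 71.8% in KO. In WT the widest rises beside Itgbl1 were those of Lama3 (2.42 ± 0.24, adjusted p = 4.4e-10), Itga10 (1.92 ± 0.06, adjusted p = 2.46e-21), Itgb8 (1.70 ± 0.11, adjusted p = 3.45e-14) and Itga8 (1.53 ± 0.07, adjusted p = 8.64e-17). The widest falls in WT were those of Itgad (-3.29 ± 0.30, adjusted p = 4.71e-10), Lama5 (-2.29 ± 0.11, adjusted p = 3.79e-16) and Itga7. In KO the widest rises were those of Lama3 (6.30 ± 0.13, adjusted p = 4.51e-26), Itga10 (5.03 ± 0.06, adjusted p = 1.86e-30), Itgbl1, Lama2 (4.04 ± 0.06, adjusted p = 5.43e-28) and Lama4 (4.03 ± 0.04, adjusted p = 3.6e-32). The widest falls in KO were those of Itgam, Nid2 (-1.40 ± 0.04, adjusted p = 7.35e-23), Itga3 (-1.30 ± 0.05, adjusted p = 6.62e-19) and Itgav (-1.26 ± 0.04, adjusted p = 4.13e-23). Because each WT or KO group enters 2 of these comparisons, the lists share libraries.

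The change of the genotype difference between the days was called for 33 of the 40 genes, where 66% of all genes were called. At 2-fold or more it was called for 19 genes (13 upward and 6 downward) against 16.2% of all genes (9.21% upward and 7.04% downward). The downward ones were Itga3, Itga6, Itgav, Itgal, Itgam and Nid2. Beside the 5 laminin alpha chains, the upward ones were Itga7, Itga10, Itga4, Itgb2, Itgb3, Itgb5, Itgb7 and Lamb3.

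Genes around the integrins were described by lists, which were chosen with earlier results of these data known. Of 33 measured adaptor and focal adhesion genes of 35 listed, 18 were higher and 14 lower in KO at day 3 (median log2 fold change 0.31, 24 higher and 6 lower with the authors' sizes), and 7 were higher and 19 lower at day 7 (median -0.26), a split that turned to 21 higher and 7 lower with the authors' sizes. The median over all genes was -0.004 at day 3 and -0.03 at day 7. Over all genes, 43% were called higher and 43.4% lower at day 3, and 41.7% higher and 44.3% lower at day 7. The same shares stand beside the counts of the lists that follow. Ptk2b, the focal adhesion kinase relative Pyk2, fell from 150.3 ± 5.84 to 5.41 ± 0.57 CPM at day 3 and from 157 ± 4.18 to 5.96 ± 0.338 CPM at day 7 (-4.79 ± 0.05 and -4.72 ± 0.05, adjusted p = 1.42e-32 and 8.54e-33). Tns3, a tensin that links integrin tails to actin, fell from 715 ± 13.9 to 172 ± 5.83 CPM and from 569 ± 17.4 to 166 ± 7.6 CPM. Vcl, vinculin, was at 829.7 ± 13.7 and 871 ± 8.2 CPM at day 3 and fell from 1049 ± 34.6 to 329.9 ± 9.35 CPM at day 7 (-1.67 ± 0.03, adjusted p = 2.25e-27). Nedd9, a docking protein downstream of focal adhesion kinase, rose in KO from 31 ± 0.703 to 92.3 ± 3.62 CPM at day 3 and from 52.6 ± 1.93 to 70.4 ± 3.2 CPM at day 7.

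Of 17 measured further basement membrane genes of 21 listed, 7 were higher and 9 lower in KO at day 3 (median -0.24, 10 and 6 with the authors' sizes) and 10 were higher and 5 lower at day 7 (median 0.41). Col18a1, the source of endostatin, fell from 175 ± 8.29 to 19.2 ± 1.78 CPM at day 3 and from 159 ± 5.78 to 69.1 ± 3.41 CPM at day 7, and Ntn4, a laminin-binding netrin, fell at day 7 from 10.1 ± 0.295 to 1.04 ± 0.252 CPM. Fras1 rose at day 3 from 1.08 ± 0.116 to 7.93 ± 0.565 CPM, and Tinagl1 rose at day 7 from 4.88 ± 0.605 to 25.3 ± 1.52 CPM. Of the 14 laminin receptors that are no integrins, 5 were higher and 8 lower at day 3 (median -0.14, 8 and 4 with the authors' sizes) and 5 were higher and 9 lower at day 7 (median -0.34, 8 and 4 with the authors' sizes). Bcam, the Lutheran receptor for Lama5, fell from 8.14 ± 0.642 to 0.978 ± 0.227 CPM and from 8.27 ± 0.715 to 0.187 ± 0.0615 CPM, and Sdc1, syndecan-1, from 467 ± 12.7 to 173 ± 2.91 CPM and from 515 ± 8.0 to 227 ± 6.86 CPM. Of the agrin receptor pair, Musk fell from 1.07 ± 0.159 to 0.0355 ± 0.0262 CPM and from 1.93 ± 0.139 to 0.0133 ± 0.0267 CPM, and Lrp4 fell at day 7 from 294 ± 11.9 to 51.6 ± 6.08 CPM.

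Of 22 measured further integrin ligands of 25 listed, 10 were higher and 11 lower in KO at day 3 (median -0.11, 13 and 9 with the authors' sizes), and 11 were higher and 10 lower at day 7 (median 0.16). Icam1, the ligand of the leukocyte integrins, fell from 22.2 ± 1.05 to 0.541 ± 0.192 CPM and from 44.4 ± 0.509 to 0.715 ± 0.324 CPM. Tgfbi, a matrix ligand of several integrins, rose from 4.63 ± 0.644 to 84.9 ± 1.51 CPM at day 3 and from 8.64 ± 0.633 to 55.3 ± 2.56 CPM at day 7. Ctgf fell from 679.9 ± 19.1 to 386 ± 30.6 CPM at day 3 and from 571 ± 11.8 to 49.2 ± 1.91 CPM at day 7. Of 17 marrow stromal markers, all measured, 8 were higher and 8 lower at day 3, and 7 were higher and 10 lower at day 7. Cxcl12, the chemokine that holds blood stem cells in the marrow, fell from 4831 ± 98.8 to 848 ± 27.5 CPM at day 3 and from 5914 ± 304 to 149.6 ± 11 CPM at day 7. Lepr, the leptin receptor, was at 0.052 and 4.52 CPM at day 3 and 1.83 and 10.3 CPM at day 7. Of 8 Schwann and neural crest markers 4 were measured, 1 higher and 2 lower at day 3 and 1 higher and 3 lower at day 7. Sox10 was not among the genes measured. Ngfr was at 16.3 ± 2.86 CPM in WT day 7 and 0.124 ± 0.0363 in KO day 7 and below 0.1 CPM in both day 3 means.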

How the data were processed

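The authors deposited raw counts per gene for 16 libraries beside exon coordinates and a summed exon length, per the file headers. A further set of deposited columns, called CPM in the file headers, holds a signal: each count divided by 1 size per library. This size was 0.745 to 1.35 times the total count. Per the submitters' processing notes, the build was mm10 and STAR 2.4.2a, featureCounts and edgeR were used, in roles that are not stated. Libraries kept the strand and were made from poly(A) RNA, per the labels' protocols, and 0 columns of values were left without a library. Coordinates of all 40 genes overlapped the same symbol in GENCODE M21 (GRCm38).

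The fit of these counts used edgeR 4.0.16 under R 4.3.3 (robust quasi-likelihood, 4 group means over 16 libraries, 12 residual degrees of freedom, TMM factors 0.949 to 1.05). filterByExpr removed 0 genes, and the lowest summed count of the table was 105. Wells varied with a common dispersion of 0.00181 (coefficient of variation 4.25%), so at this depth small differences pass the test. Standard errors are the log2 fold change over the root of F and approximate. Adjusted p-values are Benjamini-Hochberg values over 13474 genes. CPM use the TMM-scaled sizes, and RPKM divide these by the deposited length in kilobases. The test was checked on simulated counts in which few genes changed, equally up and down, with the TMM-scaled sizes taken as true. Such a check cannot show whether these sizes are right or how shifts of whole chromosomes act. Alternatives used DESeq2 1.42.0, limma 3.58.1 (voom), other library sizes, filters and offsets, and each library left out. Sequences came from RefSeq windows (Python 3.11.15, pandas 2.3.3), and Lama3 and other genes without a shown window were given no sequence.

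Values in every library are given for members with a mean of at least 1 CPM in a group and a called difference of at least 2-fold between genotypes or in the interaction, the others by means. From each further list up to 4 called genes with the widest genotype differences and at least 1 CPM are named. The figure of levels shows 12 genes chosen after their values were seen. The members, lists and tests were chosen with earlier results of these data known. Libraries 1 and 1b, and 10 and 10b, differed by more than sampling noise (chi-square per degree of freedom 2.89 and 4.74) and entered separately. The counts over the 40 genes include 1 whose values are not reported here.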

Additional observations from a re-analysis of the deposited data

Results flagged for a closer look

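In 160 sets of 4 libraries (40 genes in 4 groups), 5 held a library far from the other 3 by Dixon's test at its 95% critical value, where chance flags about 1 in 20 sets. Itgam was at 0.620 CPM in KO day 3 library 6 against 0.482 to 0.503 CPM in the others, and Itgad at 0.0269 CPM, 1 count, in the same library against 0. Itgb2 was at 2.87 CPM in KO day 7 library 14 against 3.36 to 3.45 CPM. Itgb5 was at 558 CPM in WT day 3 library 1 against 588 to 593 CPM. Lama3 was at 35.5 CPM in KO day 7 library 16 against 28.9 to 29.5 CPM.

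The KO to WT difference changed by at least 2-fold between day 3 and day 7, by the interaction of the edgeR fit, for 19 genes. On the log2 scale it moved up for Lama3 (3.88), Lama4 (3.24), Itga10 (3.11), Lama2 (2.55), Itgb3 (2.35), Itga7 (2.20), Itgb7 (1.88), Itgb2 (1.62), Lamb3 (1.58), Itga4 (1.51), Itgb5 (1.24), Lama5 (1.12) and Lama1 (1.07). It moved down for Nid2 (-2.29), Itgal (-1.87), Itgam (-1.36), Itga3 (-1.13), Itga6 (-1.13) and Itgav (-1.02). Day 7 also differed from day 3 in medium, density and supplements, and these cannot be told apart from time.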

How the results depend on the processing

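The number of the 40 genes called stayed within 36 to 37 at day 3, 36 to 39 at day 7, 31 to 34 between days in WT, 33 to 35 in KO and 31 to 35 for the interaction over all alternatives and all libraries left out in turn, and at 2-fold within 18 to 24, 21 to 23, 11 to 12, 18 to 22 and 17 to 21. With the authors' library sizes the KO to WT difference turned at day 3 for Itga10 (0.069), Itga11 (0.14), Lama1 (0.11), Lamb1 (0.41), Lamb2 (0.20) and Nid2 (0.23), and at day 7 for Itga11 (0.38), Itga5 (0.27), Lamb1 (0.29), Lamb2 (0.48), Nid1 (0.40) and Itgb3bp (0.00815). Relative to chromosome medians it turned at day 3 for Lamb1 (0.37), Nid1 (-0.34), Agrn (-0.22) and Itgb3bp (-0.28), and at day 7 for Itga11 (0.040), Lamb1 (0.16), Lamb2 (0.14) and Hspg2 (-0.10). Not called in the new direction were Itga10 and Lama1 at day 3 and Itgb3bp at day 7 with the authors' sizes. The same held for Itga11 and Hspg2 at day 7 relative to chromosome medians. Both alternatives shift every gene, or every gene of a chromosome, by a constant. No other alternative turned a called direction. Leaving out 1 library lost a call in 27 cases and gained one in 10. Beside those named in the report, calls were lost, among others, for Itgal between days in KO (without KO library 7, 13, 14 or 15, adjusted p 0.0589 to 0.288) and Itgb1 between days in WT (1, 1b, 3, 4, 9 or 10, 0.0564 to 0.107). Calls were gained for Fn1 between days in WT (4, 8, 10b or 15, 0.0171 to 0.0445), Lamb1 between days in KO (16), and the interactions of Itga2 (6, 0.0477) and Lamc1 (16). At day 7, Itga8 was not called with total counts, nor Itga2, Itgb2 and Itgb3 with the authors' sizes. limma voom did not call Lama3 at day 3, and DESeq2 and its size factors did not call Lamb2 at day 7. Itgb1 between days in WT was not called with DESeq2, its size factors or total counts (adjusted p 0.0754 to 0.119). Nor was it called against chromosome medians (0.0890) or with 1 and 1b, and 10 and 10b, summed (0.0887). Fn1 between days in WT was called with DESeq2, its size factors, total counts and the fit of the 2 groups alone (0.0025 to 0.0299). With GENCODE M21 lengths, chosen after seeing the data, 115 of 160 shares moved by more than 1 SD. The length of the RefSeq proteins was not run. No paired analysis was possible because the groups share no replicate numbers. Genes below about 1 CPM, such as Itga2, Itgad, Itgal and Lamb3 in WT and Itgbl1 in WT day 3, rest on few counts.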
